A study of Mus musculus with 2 samples.

Results

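The nuclear-encoded genes of oxidative phosphorylation were followed across the cell types of arthritic mouse synovium, and between mice pre-treated with β-glucan and with PBS. Members were all gene features whose symbol starts with Nduf, Uqcr, Atp5 or Sdh, or with Cox followed by a digit from 4 to 8, without the genes of the mitochondrial genome. This rule matched 101 of the 32524 features counted, with 100 distinct symbols because Atp5o stands for 2 features. Of these, 93 reached 5 CPM in the mean of both libraries, where CPM counts a gene's unique molecular identifiers (UMIs, each standing for 1 captured transcript) per 1000000 UMIs of all genes, and so did 10380 features in all. The 8 members under that minimum were Cox4i2, Cox5b-ps, Cox6a2, Cox7b2, Cox8b, Cox8c, Ndufa4l2 and Ndufb11b. Next to the minimum, Ndufa4l2 had 4.80 and Cox6a2 3.19 CPM outside it, and Ndufaf1 had 5.40 and Cox6b2 6.86 inside it.

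Oxidative phosphorylation couples electron transport through complexes I to IV of the inner mitochondrial membrane to the making of ATP by complex V. Complex I takes electrons from NADH, and complex II, which is also an enzyme of the tricarboxylic acid cycle, takes them from succinate. Complex III hands them to cytochrome c and complex IV to oxygen, and the proton gradient built on the way drives complex V. Most subunits come from nuclear genes and a small core from the mitochondrial genome. In macrophages the pathway is known for shifting against glycolysis when the cells are activated.

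Wild-type C57BL/6 mice aged 7 to 10 weeks received 1 intraperitoneal injection of 1 mg β-glucan, a polysaccharide used to induce trained immunity, or of PBS, and arthritis was started 7 days later. The study's methods give K/BxN serum transfer for this experiment, whereas the sample labels describe arthritis from an antibody cocktail with lipopolysaccharide, and by either account both groups had arthritis of the same kind. On day 17 the hind paws of 4 mice per group were pooled and sorted for CD45+CD11b+ cells, and each pool gave 1 droplet library that counts transcripts at their 3' end. Which of the study's β-glucan preparations was injected is not given for these samples.

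With 1 library per group no difference between β-glucan and PBS could be tested, and the intervals in parentheses are 95% intervals that cover counting error only. The β-glucan and PBS libraries held 81611849 and 73874602 UMIs over 7196 and 5760 barcodes, of which 5696 and 4553 were kept, those with 500 genes or more and no more than 10% of UMIs from the mitochondrial genome. They had 7 barcodes in common, 2 of them among the kept cells. Throughout, the β-glucan value is given before the PBS value. Cells were clustered with the members left out, and clusters were named from marker genes. The main myeloid cell compartment, with 4618 and 3676 cells, held 8 clusters of 100 or more cells per library (5 macrophage-like, 2 like antigen-presenting cells and 1 unnamed) and 2 smaller ones. Although the sort was for CD11b+ cells, there were also B cell-like, T cell-like, NK cell-like, basophil or mast cell-like, stromal-like and endothelial-like clusters with their defining markers.

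The 4 genes whose promoters are printed here were lower with β-glucan in all 8 large clusters of the compartment, as were 5.14% of all features. So were Atp5c1, Atp5d and Atp5pb of the same complex V, whose promoters are not printed. Atp5b encodes the catalytic β subunit, and Atp5g1, Atp5g2 and Atp5g3 encode the c subunit of the rotor ring from 3 separate loci. Each window runs from 250 bases before to 50 after the RefSeq start, 5′ to 3′ on the gene's strand, on build GRCm38.p6, while the counts themselves were made on GRCm39. Capitals mark CCAAT, the core of the NF-Y site, in Atp5b, Atp5g1 and Atp5g3, and GCATGCGC, the core of the site of NRF1, a factor known for acting on respiratory chain genes, in Atp5g2, on either strand.
Atp5b, chr10:128083057-128083356, plus strand: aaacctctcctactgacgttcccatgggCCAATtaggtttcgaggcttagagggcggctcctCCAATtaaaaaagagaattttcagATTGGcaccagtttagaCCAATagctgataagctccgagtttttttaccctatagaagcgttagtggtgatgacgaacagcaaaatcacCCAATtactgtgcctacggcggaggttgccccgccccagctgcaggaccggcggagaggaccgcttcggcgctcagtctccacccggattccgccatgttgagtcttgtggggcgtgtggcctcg
Atp5g1, chr11:96075582-96075881, minus strand: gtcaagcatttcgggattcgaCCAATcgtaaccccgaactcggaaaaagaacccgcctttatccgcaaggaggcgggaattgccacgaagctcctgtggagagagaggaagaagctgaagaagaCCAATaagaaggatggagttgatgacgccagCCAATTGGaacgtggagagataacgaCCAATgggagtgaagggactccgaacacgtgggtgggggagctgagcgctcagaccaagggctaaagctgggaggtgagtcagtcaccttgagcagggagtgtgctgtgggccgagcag
Atp5g2, chr15:102670998-102671297, minus strand: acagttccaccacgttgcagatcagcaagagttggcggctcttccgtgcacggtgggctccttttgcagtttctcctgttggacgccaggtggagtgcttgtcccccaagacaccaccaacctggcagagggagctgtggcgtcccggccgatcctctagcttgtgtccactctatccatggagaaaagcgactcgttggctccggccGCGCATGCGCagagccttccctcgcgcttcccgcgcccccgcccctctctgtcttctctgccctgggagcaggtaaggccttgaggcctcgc
Atp5g3, chr2:73911277-73911576, minus strand: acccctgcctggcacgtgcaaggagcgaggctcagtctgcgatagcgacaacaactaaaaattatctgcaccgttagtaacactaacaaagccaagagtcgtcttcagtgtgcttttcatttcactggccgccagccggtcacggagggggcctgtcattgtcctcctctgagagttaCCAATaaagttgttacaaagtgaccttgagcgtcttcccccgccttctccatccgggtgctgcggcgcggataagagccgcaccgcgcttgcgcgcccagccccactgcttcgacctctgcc

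Atp5b and Atp5g1 each held 5 matches to CCAAT and Atp5g3 held 1, whereas the Atp5g2 window held 2 overlapping matches to GCATGCGC, 1 on each strand. Promoters were found for 79 member genes, 84 promoters in all. GCATGCGC was in 12 of the 84 (14.3%) and in 2.71% of the 32851 promoters of all genes, and AAGATGGC, the core of the YY1 site, was in 11 (13.1%) and in 2.75%. CCGGAAGT, an ETS site of the kind GABPA binds, was in 5 (5.95%) and in 3.89%, and CCAAT was in 35 (41.7%) and in 37.4%. Both strands were searched. Member promoters also held more G and C, with a median of 58.8% against 52.7%, and the part of base composition in these shares was not tested. A match describes letters in a window and was not read as a bound site. Atp5d, with a log2 ratio of β-glucan over PBS of -0.17, held 0 matches in either of its windows. Atp5k, with 2 matches to GCATGCGC, had a log2 ratio of 0.11. Whether matches go with the ratios was not tested.

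Cell types differed more in the members' summed level than the libraries did. In the proliferating cells, marked by Ube2c and Top2a, members made up 1.80% and 1.94% of UMIs, from 49 and 69 cells. In the cells like antigen-presenting cells (APC-like) they made up 1.44% and 1.57%, and in macrophage-like cells 1.44% and 1.49%. These 3 led the named classes, and the unnamed cells, left out of the order, had 1.65% and 1.68% from 583 and 503 cells. T cell-like cells had 1.30% and 1.46%, endothelial-like cells 1.32% and 1.32% and NK cell-like cells 1.21% and 1.35%. Basophil or mast cell-like cells had 1.21% and 1.31% and stromal-like cells 1.16% and 1.23%. The lowest were B cell-like cells with 1.04% and 1.13% and neutrophil-like cells with 1.09% and 1.01%. Both libraries of a class lay above both of the next at 2 places in this order, below the proliferating cells and below the stromal-like cells, and the other neighbours overlapped. Among the 8 classes with at least 50 cells in each library, APC-like cells were 1.44 times as high as neutrophil-like cells, and 1.52 times with mitochondrial and ribosomal protein genes left out of the totals. The neutrophil-like level joined 2 unlike clusters of a finer clustering (resolution 1). Members made up 0.668% and 0.711% of UMIs in its cluster 13 and 1.17% and 1.25% in its cluster 16. The APC-like level also joined unlike clusters, with 1.33% and 1.41% in cluster 3 and 1.58% and 1.66% in cluster 6.

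**Figure D1:**
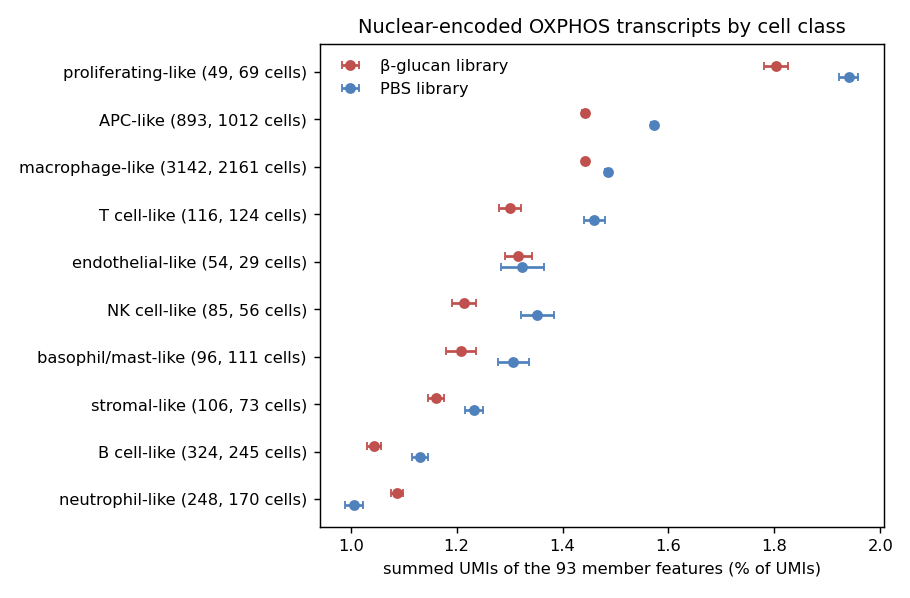
Summed UMIs of the 93 members as a share of all UMIs (%, horizontal axis) in each named cell class, for the β-glucan (red) and PBS (blue) library, with 95% intervals for counting error and the cells per library in parentheses. The proliferating cells lie highest at 1.80% and 1.94%, and in neutrophil-like cells taken as 1 class the order of the libraries is turned, at 1.09% and 1.01%, which was not so in the finer clusters within that class.

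Within the compartment the unnamed cluster 2, led by Tubb3 and Fxyd2, was highest among the large clusters, at 1.65% and 1.69%. Cluster 1, macrophage-like and led by Vsig4 and S100b, had 1.62% and 1.64%, and cluster 6, APC-like and led by Ccl17 and Retnla, had 1.58% and 1.66%. The lowest were cluster 3, APC-like and led by H2-Aa, with 1.33% and 1.41%, and cluster 7, macrophage-like and led by Gpnmb and Apoe, with 1.35% and 1.40%. The name of cluster 3 is less sure. Its naming score, the mean log2 ratio of a class's markers against the other cells, was 0.41 for APC-like and 0.40 for macrophage-like cells. In it 4 APC and 10 macrophage markers were detected. The members mostly varied together across clusters. Over 14 clusters, the median correlation of a member with the sum of the others was r = 0.78, and 74 members reached 0.5. The share of all features that reached 0.5 with the members was not taken. The count thus cannot show a trait particular to the members. The points share libraries and depth, so these r values are descriptions. Atp5j2 was highest with 0.97, followed by Ndufb10 and Atp5g1 with 0.95 and 0.95. The summed level of the mitochondrial ribosomal protein genes followed the members with r = 0.94 and that of the tricarboxylic acid cycle genes with 0.64, while the protein genes of the mitochondrial genome had -0.16. The share of UMIs from genes that span at least 100 kb had r = -0.75 with the members.

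A few members did not follow the rest. Sdhaf2, an assembly factor of complex II, had r = -0.44, and Ndufs4, an accessory subunit of complex I, had r = -0.38. Ndufs4 had 115 and 207 CPM in NK cell-like, 148 and 138 in T cell-like and 135 and 152 in B cell-like cells. In macrophage-like cells it had 81.4 and 85.6 and in neutrophil-like cells 65.3 and 62.1. All 3 lymphoid classes thus lay above the macrophage-like cells in both libraries for Ndufs4, whereas B cell-like and NK cell-like cells lay below them for the sum. Ndufs4 spans 103 kb, and the part of its span in this was not tested.

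The single subunits given next were picked for their wide range over the classes, so a wider range than that of the sum was fixed by the choice. Uqcrfs1, the Rieske iron-sulphur protein of complex III, had 90.8 and 113 CPM in APC-like cells and 38.4 and 28.4 in basophil or mast cell-like cells, the latter from 22 and 16 UMIs. Atp5b had 272 and 352 in APC-like cells against 117 and 142 there. For both genes the basophil or mast cell-like cells were the lowest of the classes with at least 50 cells per library. Ndufv3, which binds the flavoprotein part of complex I, had 169.6 and 169 in T cell-like and 62.1 and 71.7 in B cell-like cells.

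Assembly factors, which help build a complex without staying in it, were mostly lowest in neutrophil-like cells among the classes with at least 50 cells per library. By the mean of the libraries this held for 10 of 12 kept assembly factors and for 33 of the 81 other members, and the summed members were lowest there too. The share of all features lowest in neutrophil-like cells was not taken. The counts thus cannot show a trait particular to assembly factors. The 4 described here were picked for their wide range over the classes. Sdhaf1 had 14.6 and 8.56 CPM in neutrophil-like cells, from 52 and 12 UMIs, and 25.02 and 25.5 in macrophage-like cells. Sdhaf4 had 11.5 and 9.99 against 25.2 and 26.5, and Ndufaf4 13.5 and 7.85 against 19.6 and 20.6. Ndufaf2 had 16.3 and 15.0 against 30.2 and 30.9. The ranges of the libraries did not overlap between these classes for any of the 4, nor for the summed members. Because the 4 were picked for their range, this says nothing further about assembly factors.

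Complex IV, cytochrome c oxidase, has several tissue isoforms, and these were spread unevenly over the clusters. Cox7a1, the heart and muscle isoform of Cox7a2, had 12.6 and 12.7 CPM in macrophage-like cells and 18.6 and 19.6 in cluster 1. In B cell-like cells Cox7a1 had 1.21 and 1.65, from 3 UMIs in each library. Cox6b2, known as the testis isoform of Cox6b1, had 34.7 and 23.9 in cluster 6 and 26.0 and 26.8 in the proliferating cells, against 1.70 and 2.59 in macrophage-like cells. A Cox6b2 UMI was found in 99 of 290 and 141 of 514 cells of cluster 6 and in 6 of 324 and 4 of 245 B cell-like cells, at median depths of 19192 and 23415.5 against 5552 and 5958 UMIs per cell. Cox6a2, the muscle isoform of Cox6a1, was under the minimum, and its 23 UMIs in the B cell-like cells of the PBS library came from 4 cells, 16 of them from 1 cell.

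Ndufa4l2, a hypoxia-induced paralogue of the complex IV subunit Ndufa4, was also under the minimum but had 128 and 111 CPM in stromal-like cells and 46.1 and 19.0 in endothelial-like cells. In the compartment it counted 24 and 173 UMIs. Of the latter 143 lay in cluster 6, where the β-glucan library had 0, so that the level there was at least 24.6-fold higher with PBS against a floor of 3 counts per library. The 143 UMIs came from 16 of 514 cells, and 59 of them from 1 cell. No B cell-like cell held a Ndufa4l2 UMI in either library, at median depths of 5552 and 5958 UMIs per cell. Without cluster 6 the compartment had 24 and 30 UMIs, a log2 ratio of -0.62 (-1.46 to 0.20).

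AA467197, which encodes the Ndufa4 paralogue NMES1, known to replace Ndufa4 in complex IV during inflammation, falls outside the symbol rule and was listed beside the members. Its level was 28.7 and 119 CPM in the compartment, a log2 ratio of β-glucan over PBS of -2.05 (-2.12 to -1.97). In cluster 6 it had 25.6 and 423, with a UMI in 64 of 290 and 246 of 514 cells, and in the proliferating cells 33.3 and 403. In cluster 2 AA467197 had 90.3 and 108, and in B cell-like cells 4.43 and 6.07, where 2.47% and 2.45% of cells held a UMI. The difference lay mostly in 1 cluster, since cluster 6 held 74.1% of the compartment's AA467197 UMIs in the PBS library and 8.84% in the β-glucan library. Without cluster 6 the log2 ratio was -0.42 (-0.51 to -0.32). Ndufa4 itself was higher with β-glucan in cluster 6, at 244 and 199 and a log2 ratio of 0.29 (0.20 to 0.38). In the compartment Ndufa4 had 272 and 262, a log2 ratio of 0.05 (0.02 to 0.08), and without cluster 6 that ratio was -0.02 (-0.05 to 0.01). At the finer clustering (resolution 1), a cluster led by Ccl17 and Cd209a had 281 and 426 cells. Another, led by Arg1 and Slc7a2, had 17 and 75. Whether the ratios given here and below for cluster 6 hold within such finer clusters was not tested.

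**Figure D2:**
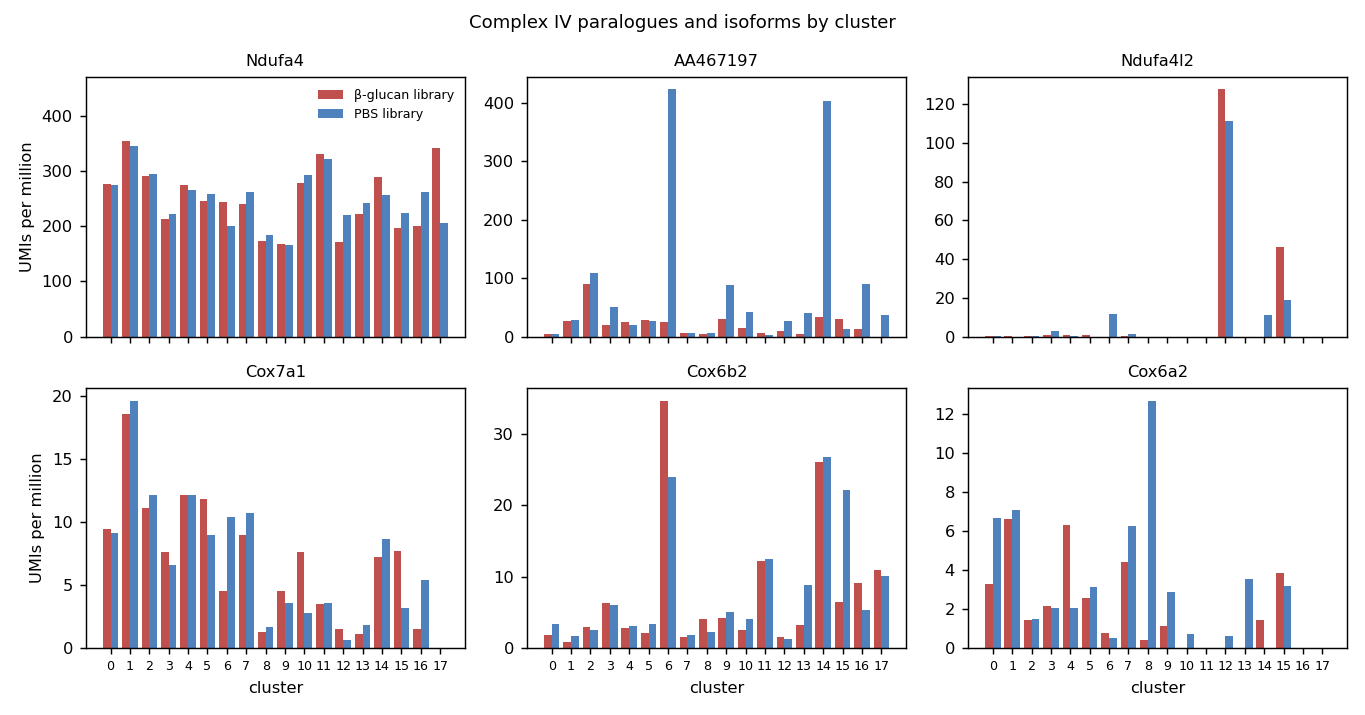
CPM (bars from 0) of Ndufa4, its paralogues AA467197 and Ndufa4l2, and the complex IV isoforms Cox7a1, Cox6b2 and Cox6a2 in each of the 18 clusters, with the β-glucan library in red and the PBS library in blue and an axis of its own for each gene. AA467197 reaches 423 with PBS in cluster 6 against 25.6 with β-glucan, Ndufa4l2 peaks in stromal-like cluster 12, Cox7a1 in cluster 1 and Cox6b2 in cluster 6.

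Because Ndufa4l2 belongs to the genes that hypoxia induces, a list of such genes was set beside it. It made up 0.140% and 0.174% of compartment UMIs. Of its 16 measured genes 14 were lower with β-glucan, against 42.5% of all features, and 9 were at least 1.2-fold lower, against 5.54%. The median log2 ratio of the list was -0.35. Ldha, for lactate dehydrogenase, had 228 and 305 CPM, Pgk1, for a glycolytic kinase, 90.4 and 140.3, and Bnip3, for a mitophagy receptor, 38.0 and 56.4. Hif1a itself had 128 and 122. The summed list had a log2 ratio of -0.96 (-0.99 to -0.92) in cluster 6 and between -0.17 and -0.03 in the other 7 large clusters of the compartment. Outside the compartment it had -0.75 (-0.83 to -0.67) in T cell-like cells and -0.73 (-0.81 to -0.66) in the proliferating cells. The other classes there differed less. The list had -0.39 in NK cell-like, -0.16 in basophil or mast cell-like and -0.16 in stromal-like cells. It had -0.10 in neutrophil-like, -0.004 (-0.10 to 0.09) in B cell-like and 0.11 (-0.06 to 0.28) in endothelial-like cells.

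Between the libraries the members as a sum differed little. They made up 1.47% and 1.54% of compartment UMIs, from 961538 and 933844 UMIs, a log2 ratio of -0.07 (-0.07 to -0.06). Of the 93 members 76 were lower with β-glucan (81.7%), against 42.5% of all features, and the median log2 ratio was -0.07 for members and 0.03 for all features. The interval lay wholly under 0 for 58 members (62.4%), against 21.3% of all features. It lay wholly above 0 for 7 of 93 members, against 3351 of 10380 features. Single differences were small. Only Cox6b2 was at least 1.2-fold lower, 1 of 93 members against 5.54% of all features, and 0 members were at least 1.2-fold higher, against 8.4%.

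The direction of this sum depended on what it was scaled to. Genes that span at least 100 kb, members left out, gave 19.5% and 17.7% of compartment UMIs, and genes that span under 10 kb gave 34.2% and 36.1%. Of the members 52 span under 10 kb, and they had a median log2 ratio of -0.06 with 42 lower, beside a median of -0.06 with 1322 lower among all 1960 features of that span. The 38 members that span 10 to 100 kb had a median of -0.08 with 32 lower, beside 0.03 with 2777 lower among 6876 features. With totals over genes under 10 kb the summed log2 ratio was 0.01 (0.00 to 0.01). There 44 of 93 members were lower (47.3%), against 24.6% of all features. With cells matched within clusters for the part of their UMIs from long genes, the summed log2 ratio was 0.05 (0.04 to 0.05). There 28 of 93 members were lower (30.1%), against 48.4% of all features. The direction of the sum thus turned under both. Of these 2 settings, only the matched cells had members less often lower than all features. The origin of the difference in long-gene UMIs was not tested.

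**Figure D3:**
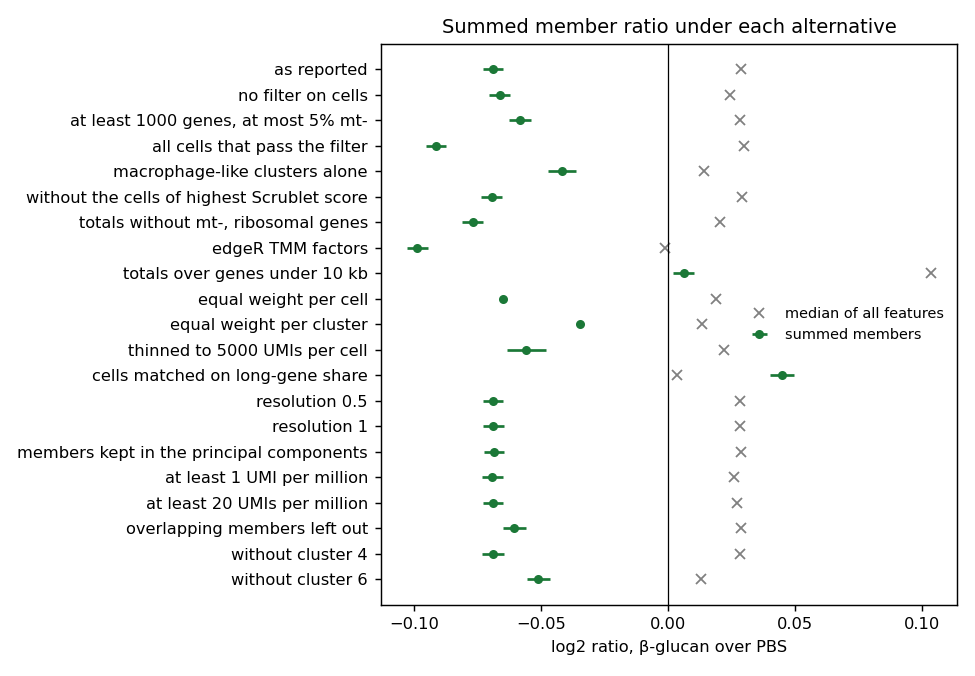
Log2 ratio of the summed members, β-glucan over PBS, as reported and under each alternative (green points, with 95% intervals for counting error where counts give one), beside the median log2 ratio of all features (grey crosses). The sum lies under 0 except with totals over genes under 10 kb (0.01) and with cells matched on long-gene share (0.05).

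The counts by complex given here and below stand beside 42.5% of all features lower. The sums by complex were not taken with totals over genes under 10 kb, where the sum of all members turned, so their direction depends on the scaling too. Complex I, the NADH dehydrogenase, had 38 of 45 members lower and a summed log2 ratio of -0.06. All 7 core subunits, which carry the flavin, the iron-sulphur clusters and the ubiquinone site, were lower, with 5 intervals under 0. Ndufv2 had 106 and 118 CPM, a log2 ratio of -0.16 (-0.21 to -0.11), and at the other end Ndufs1 had 54.0 and 54.7, a log2 ratio of -0.02 (-0.09 to 0.05). Of the 30 accessory subunits 26 were lower. Ndufab1, the mitochondrial acyl carrier protein, had 73.3 and 85.1, a log2 ratio of -0.22 (-0.27 to -0.16). The accessory subunits Ndufa9, Ndufa8 and Ndufb8 followed with log2 ratios of -0.21, -0.20 and -0.18. Ndufb1 differed in the other direction, with 263 and 248 and a log2 ratio of 0.09 (0.06 to 0.12), and was the 1 member that was higher in all 8 large clusters of the compartment, as were 8.06% of all features. Ndufa2 and Ndufa3 were also higher, with log2 ratios of 0.08 and 0.07. For none of the 8 assembly factors did the interval leave out 0.

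Complex II, succinate dehydrogenase, had 5 of 8 members lower, and its 4 subunits differed among themselves. Sdhd, a membrane anchor, had 75.8 and 88.6 CPM, a log2 ratio of -0.23 (-0.28 to -0.17). Sdhb, the iron-sulphur subunit, had 108 and 118, a log2 ratio of -0.13 (-0.17 to -0.08). Both were lower beyond counting error. Sdha, the flavoprotein that oxidises succinate, had 106 and 105, a log2 ratio of 0.00 (-0.05 to 0.05), and the other anchor, Sdhc, had 84.7 and 86.2, a log2 ratio of -0.03 (-0.08 to 0.03). With totals over genes under 10 kb Sdhd had -0.15. Among the assembly factors Sdhaf2 had a log2 ratio of 0.08 (-0.02 to 0.18).

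Complex III had 7 of 8 members lower and a summed log2 ratio of -0.05. Uqcrfs1 had 78.4 and 89.3 CPM, a log2 ratio of -0.19 (-0.24 to -0.13). Uqcr11, a small subunit, was the 1 member of the complex that was higher, with 233 and 226 and a log2 ratio of 0.04 (0.01 to 0.08).

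Complex IV had 12 of 14 members lower and a summed log2 ratio of -0.07. Cox8a, the common isoform of the smallest subunit, had 412 and 461 CPM, a log2 ratio of -0.16 (-0.18 to -0.14), and Cox6b1 had 355 and 388, a log2 ratio of -0.13 (-0.16 to -0.11). Cox4i1, the common isoform of subunit 4, had 717 and 748, a log2 ratio of -0.06 (-0.08 to -0.04). These 3 genes were lower in all 8 large clusters, although with totals over genes under 10 kb Cox4i1 turned to 0.01. Cox7a2 and Cox7a2l had log2 ratios of -0.10 and -0.10. Cox6b2 had 5.79 and 7.46, a log2 ratio of -0.37 (-0.57 to -0.16), yet was higher within cluster 6, with a log2 ratio of 0.54 (0.28 to 0.79). That cluster held most of its UMIs, with 290 cells in the β-glucan and 514 in the PBS library, and when each cluster had equal weight, Cox6b2 had a log2 ratio of 0.26.

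Complex V, ATP synthase, had 14 of 18 members lower and a summed log2 ratio of -0.08. Atp5b, which forms ATP in the catalytic head, stood at 272 and 324 CPM. Its log2 ratio of -0.25 (-0.28 to -0.22) was the lowest among members with at least 20 CPM. Across the 8 large clusters it ran from -0.38 to -0.13, and it stayed lower with totals over genes under 10 kb, at -0.18. In the annotation 3 other genes on the same strand overlap Atp5b. Atp5a1, its partner in the head, had 304 and 313, a log2 ratio of -0.04 (-0.07 to -0.02) that turned to 0.03 with those totals. Atp5d, of the central stalk, had 167 and 189, a log2 ratio of -0.17 (-0.21 to -0.13). The c-ring genes had 181 and 199 for Atp5g1, 243 and 268 for Atp5g2 and 161 and 181 for Atp5g3, with log2 ratios of -0.14, -0.14 and -0.17. The NRF1 letters were in the window of Atp5g2 and CCAAT in those of Atp5g1 and Atp5g3. Whether such letters go with the ratios was not tested. The 5 membrane subunits summed to 0.00, with 2 lower, and Atp5k had 198 and 184, a log2 ratio of 0.11 (0.07 to 0.15).

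Atp5o, the stalk subunit that links the head to the membrane part, was counted as 2 features. The model that spans 8.26 kb had 9413 and 9517 UMIs, a log2 ratio of -0.13 (-0.17 to -0.09). The other spans 243 kb, overlaps 7 genes on its strand and had 2329 and 1843 UMIs, a log2 ratio of 0.23 (0.14 to 0.32). That was the highest ratio among the 93 members that reached the minimum, and how the overlap with those genes bears on its UMIs was not tested. Without the members that overlap another gene on the same strand, 62 of 77 were lower.

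**Figure D4:**
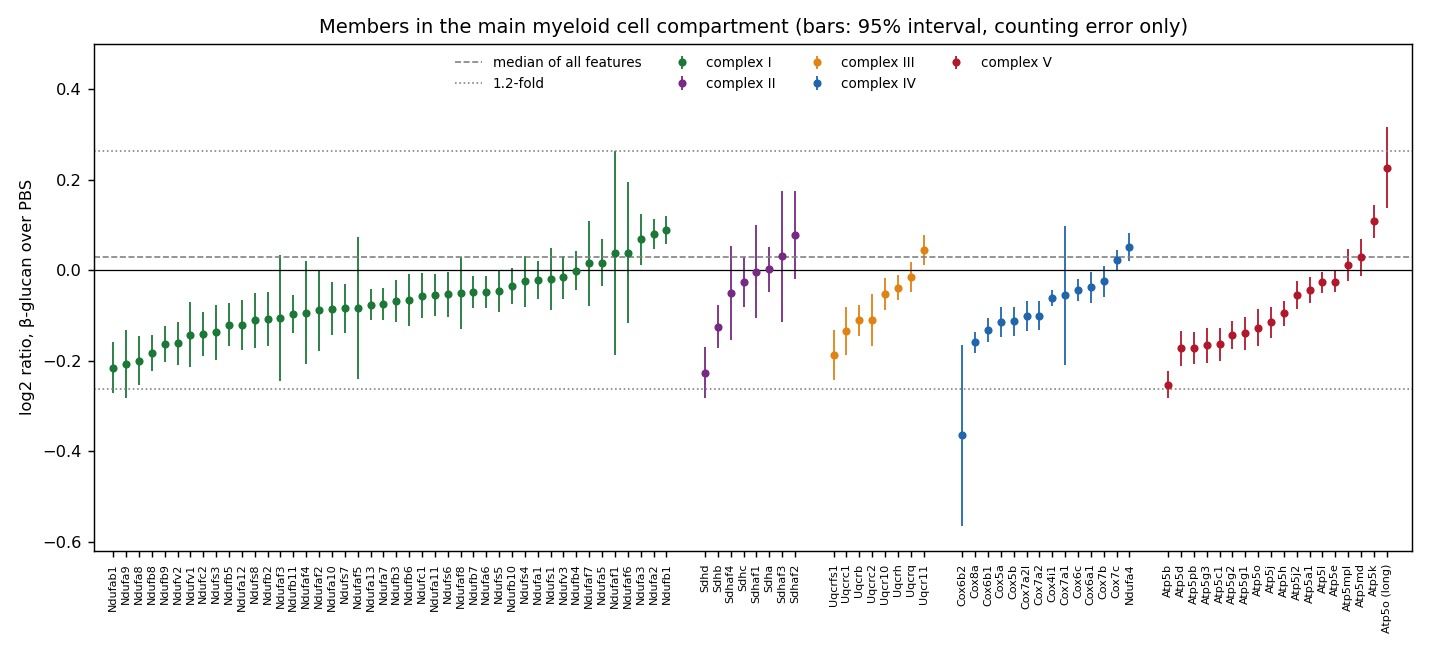
Log2 ratio of β-glucan over PBS (vertical axis) for each member reported here in the main myeloid cell compartment, grouped by complex, with 95% intervals for counting error. The dashed line is the median of all features (0.03) and the dotted lines mark 1.2-fold. Most points lie under 0, and Cox6b2 (-0.37) is the only one more than 1.2-fold lower.

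By cluster the summed members were lower with β-glucan in all 8 large clusters of the compartment, from -0.08 (-0.10 to -0.07) in cluster 3 to -0.02 (-0.03 to -0.01) in cluster 1. All 8 come from the same 2 libraries, so they do not repeat the comparison. The share of UMIs from long genes was also higher with β-glucan in all 8, such as 19.2% and 18.1% in cluster 3 and 19.4% and 18.4% in cluster 1. Its part in the sums by cluster was not tested. Of the 93 members 24 (25.8%) were lower in all 8, against 5.14% of all features, among them Atp5b, the 3 c-ring genes, Cox8a, Ndufab1 and Sdhb. In at least 5 of the 8, 63 members (67.7%) were lower, against 36.3% of all features. Macrophage-like cells had a summed log2 ratio of -0.04 (-0.05 to -0.04) and APC-like cells -0.12 (-0.13 to -0.12). Most APC-like cells were of cluster 3 in the β-glucan library (570 cells) and of cluster 6 in the PBS library (514 cells). Within clusters 3 and 6 the summed log2 ratio was -0.08 and -0.08. Outside the compartment the sum was lower in B cell-like cells, at -0.12 (-0.14 to -0.09), and in T cell-like cells, at -0.17 (-0.20 to -0.14).

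Taken as 1 class, neutrophil-like cells had a summed log2 ratio of 0.11 (0.08 to 0.14) from 248 and 170 cells, but this direction did not hold in the cells that make up the class. At a finer clustering (resolution 1) it fell into cluster 13, led by Retnlg and S100a9, and cluster 16, led by Acod1, Il1r2 and Il1b. In both, 6 of the neutrophil markers used for naming were detected. Among the 10 leading genes, cluster 13 had 4 of them and cluster 16 had 0, and 10 macrophage markers were detected in cluster 16. Whether cluster 16 held doublets was not tested, so its name is less sure. Cluster 13 had 114 and 127 cells with median depths of 4088.5 and 4381 UMIs, and its members made up 0.668% and 0.711% of UMIs, a log2 ratio of -0.09 (-0.15 to -0.03). Cluster 16 had 135 and 43 cells with median depths of 18335 and 18239, and its members made up 1.17% and 1.25%, a log2 ratio of -0.09 (-0.13 to -0.06). Members were thus lower with β-glucan within each, and the libraries differed in how many cells each cluster held. In the class as a whole 18 of 90 members measured were lower, and 35.1% of all features were lower. The median log2 ratio was 0.14 for members and 0.17 for all features. The genes of the mitochondrial genome summed to 0.48 and the ribosomal protein genes to 0.40. The median depth of these cells was 9527.5 and 4533 UMIs, and the gap between the libraries was smaller within each of the finer clusters. Without the cells of highest doublet score the summed log2 ratio was 0.55 (0.51 to 0.60), from 221 and 136 cells in place of 248 and 170. The PBS library thus lost a larger part of these cells than the β-glucan library. How far the mix of the 2 finer clusters changed with this was not tested.

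**Figure D5:**
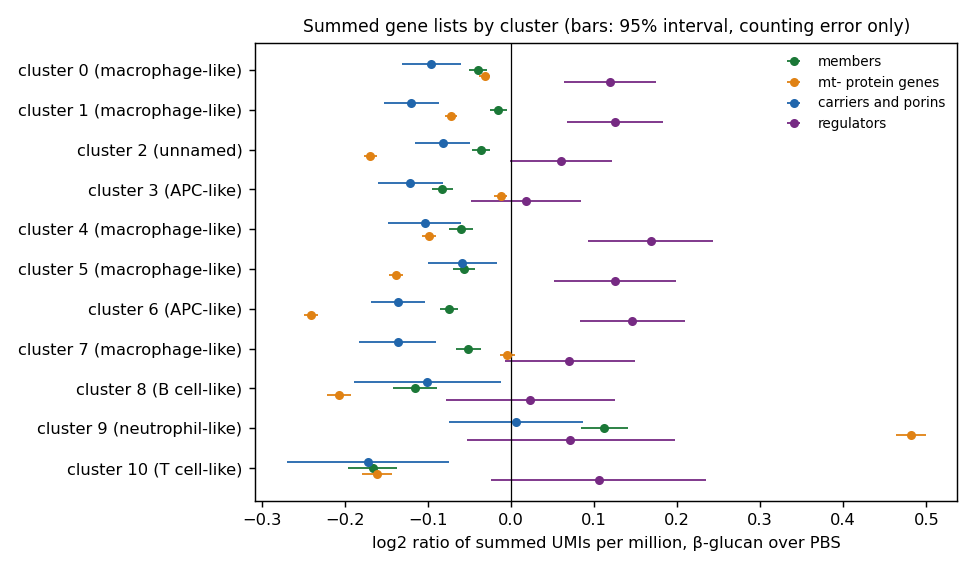
Log2 ratio of β-glucan over PBS of summed CPM for the members (green), the protein genes of the mitochondrial genome (orange), carriers and porins (blue) and regulators (purple) in the 11 clusters with 100 cells or more from each library, with 95% intervals for counting error. The members lie under 0 in every cluster shown but neutrophil-like cluster 9, where they lie at 0.11, a direction that did not hold within the finer clusters of that class.

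Of the other genes around the pathway, several lists lay lower with β-glucan as the members did. The counts below stand beside 42.5% of all features lower, and 1322 of 1960 among features that span under 10 kb. These lists were not summed with totals over genes under 10 kb, a setting that turned the direction of the summed members. The 13 protein genes of the mitochondrial genome summed to -0.08 (-0.08 to -0.07), with 9 lower, and ranged from -0.13 for mt-Cytb to 0.22 for mt-Nd4l. All 11 carriers and porins were lower, with a sum of -0.14 (-0.16 to -0.13). Among them Mpc1, of the pyruvate carrier, had 153 and 178 CPM, a log2 ratio of -0.22 (-0.26 to -0.18), and the ADP/ATP carrier gene Slc25a5 had 295 and 329, a log2 ratio of -0.15 (-0.18 to -0.13). Cytochrome c itself, Cycs, had 70.6 and 82.6, a log2 ratio of -0.23 (-0.28 to -0.17). Of the mitochondrial ribosomal protein genes 64 of 78 were lower, with a median of -0.07, and of the cytosolic ribosomal protein genes 60 of 79, with a median of -0.08. In the tricarboxylic acid cycle 9 of 17 genes were lower and the sum was -0.02 (-0.04 to 0.00).

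Assembly factors outside the symbol rule had no common direction. Of those of complex I 4 of 11 were lower, of complex III 2 of 4, of complex IV 12 of 21 and of complex V 2 of 5. Among all features 42.5% were lower. The genes listed as regulators, which act on the transcription of these genes or on mitochondrial DNA, were mostly higher. Of 13 measured 11 were higher with β-glucan, beside 57.5% of all features, with a sum of 0.11 (0.09 to 0.14), and the sum was higher in all 8 large clusters of the compartment. Nrf1 had 113 and 102 CPM, a log2 ratio of 0.15 (0.10 to 0.20). Ppargc1b, a coactivator of mitochondrial biogenesis, had 36.4 and 31.7, a log2 ratio of 0.20 (0.11 to 0.29), and Esrra, a nuclear receptor it acts with, had 28.7 and 25.9, a log2 ratio of 0.15 (0.05 to 0.25). Tfam, which packs mitochondrial DNA and takes part in its transcription, had 19.0 and 18.8, a log2 ratio of 0.02 (-0.10 to 0.14). The regulator genes have a median span of 27.2 kb and the members one of 9.23 kb.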

How the data were processed

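Single-cell 3' libraries (10x Chromium v3.1) of sorted synovial myeloid cells were analysed, 1 per group. The authors deposited tables of UMI counts by gene and barcode from Cell Ranger 7.0.0 on GRCm39 with Ensembl annotation; the submitters' processing notes also name mm10, and whether intronic reads were counted is not given in the sources used here. Cells with under 500 genes or over 10% mitochondrial UMIs were left out, 1500 and 1207 in the β-glucan and PBS libraries. Clusters were rebuilt at resolution 0.7 on 30 components of 3000 variable genes (Seurat 5.3.0, sctransform 0.4.2), with members left out of the components, and named from marker genes; the study's own cell assignment was not used, so names may differ from it. Scrublet in scanpy 1.11.5 called 0 and 3 doublets and had thus not worked, so doublets were not removed, and the 328 and 210 cells of highest score were left out as an alternative.

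Counts were summed per library and class or cluster and divided by total UMIs. Log2 ratios have exact conditional binomial and levels exact Poisson intervals at 95%, for counting error only. No test between groups was made because each group has 1 library. Gene spans come from GENCODE vM39, in which 31870 of 32524 features were found by identifier. Scripts were tested on simulated data. The members and gene lists were chosen with earlier results of these data known. Named members were the 8 highest and 8 lowest ratios among those with at least 20 CPM, the 10 with the widest range over classes, isoform pairs and core catalytic subunits; members, other genes and list genes named beyond these were chosen after their values were seen. Alternatives changed the cell filter, the cells compared, scaling (edgeR 4.0.16 TMM among them), weights, depth, clusters and minimum level. The single values of 1 member are not reported here, although it is counted among the members.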

Additional observations from a re-analysis of the deposited data

Results flagged for a closer look

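Taken as 1 class, neutrophil-like cells had a summed member log2 ratio of β-glucan over PBS of 0.11, while the 4 other named classes with at least 100 cells in each library (macrophage-like, APC-like, B cell-like and T cell-like cells) lay under 0, between -0.17 and -0.04. With 1 library per group the difference between classes was not tested. The median log2 ratio in neutrophil-like cells was 0.14 for members and 0.17 for all features. At resolution 1 the class fell into cluster 13, led by Retnlg and S100a9, with 114 and 127 cells and a median depth of 4310 UMIs, and cluster 16, led by Acod1, Il1r2 and Il1b, with 135 and 43 cells and a median depth of 18287. Within them the summed log2 ratio was -0.09 (-0.15 to -0.03) and -0.09 (-0.13 to -0.06), so the direction seen in the whole class did not hold in either. Cluster 16 had 0 of the neutrophil markers among its 10 leading genes, against 4 in cluster 13, and 10 macrophage markers were detected in it.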

How the results depend on the processing

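No paired analysis was possible because each group has 1 library, and leaving out a replicate was not possible for the same reason. The summed log2 ratio of -0.0688 turned to 0.00627 with totals over genes that span under 10 kb. It turned to 0.0451 with cells matched on long-gene share. In these settings 44 and 28 of 93 members were lower in place of 76, beside 24.6% and 48.4% of all features. The cause was not tested. The summed log2 ratio was -0.0581 with cells of 1000 genes or more and no more than 5% mitochondrial UMIs. It was -0.0913 over all kept cells, -0.0417 in macrophage-like clusters alone and -0.0768 with mitochondrial and ribosomal protein genes out of the totals. It was -0.0987 with TMM factors, -0.0347 with equal weight per cluster and -0.0557 with cells thinned to 5000 UMIs. It was -0.0606 without overlapping members and -0.0510 without cluster 6. The last was chosen after seeing the data, as were the alternatives without cluster 4 and for neutrophil-like cells. Members at least 1.2-fold lower numbered 1, against 5.54% of all features. They numbered 2 over all kept cells (5.57% of all features), 2 with TMM factors (6.51%) and 2 at a minimum of 1 CPM (9.66%). They numbered 0 with equal weight per cluster (6.73%), 0 with matched cells (4.18%) and 0 at a minimum of 20 CPM (3.91%). At 1.1-fold they numbered 19, where 14.3% of all features passed. Cox6b2 turned to 0.26 with equal weight per cluster. The 0.112 of neutrophil-like cells was 0.553 without the cells of highest doublet score, a setting that left 221 and 136 of their 248 and 170 cells. It turned to -0.0909 and -0.0940 in clusters 13 and 16 of that class at resolution 1, where the libraries held the cells in other proportions. Of 44 named members 11 changed sign with totals over genes under 10 kb, 3 of them (Atp5a1, Cox4i1 and Cox6a1) with an interval that left out 0, and 1 to 6 under each other setting. Depth limits what can be said of low isoforms such as Cox6a2 and Ndufa4l2, both under the minimum.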
